A study of Mus musculus with 2 samples.

Results

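The tumour necrosis factor (TNF) superfamily was examined in memory T helper 2 (Th2) cells that made interleukin-5 (IL-5+) and in memory Th2 cells that did not (IL-5-). Its members were taken by gene name from the array's annotation. They were all probe sets with a single symbol that begins with Tnfsf or Tnfrsf, together with Tnf, Lta, Ltb, Ltbr, Fas, Fasl, Cd27, Cd70, Cd40 and Cd40lg. This gave 59 probe sets for 37 genes, out of 34945 probe sets for 18193 genes with a single symbol on the array. The 37 genes were 13 ligands, 23 receptors and Tnfsf13os, an annotated noncoding RNA opposite Tnfsf13 that is neither.

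Both groups came from BALB/c DO11.10 mice, whose transgenic T cell receptor recognises an ovalbumin peptide. Splenic CD4 T cells were grown for 6 days with the peptide, 25 U/ml IL-2 and 100 U/ml IL-4, and were then given to athymic BALB/c nu/nu mice of the same background. The IL-5+ and the IL-5- fractions were sorted from recipient spleen 30 days later, and 1 Affymetrix array was run for each. A purity of 98% is listed for both groups, and the step it refers to was not recorded here. The labels used here do not say how many recipients were used or whether RNA was pooled, and athymic hosts keep their own B cells and myeloid cells.

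TNF superfamily ligands are mostly trimers held on the cell surface, and many are shed or secreted. They bind receptors with cysteine-rich repeats, which pass the signal on through TRAF adaptors to NF-kappaB and the MAP kinases, or through death domains to caspases. On CD4 T cells, receptors such as OX40 and 4-1BB act as costimulators that sustain effector and memory cells, while the ligands that T cells carry act on B cells, dendritic cells, osteoclast precursors and stromal cells.

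Each difference below is the ratio of 2 signal intensities, IL-5+ over IL-5-, on the log2 scale. With 1 array per group there is no replicate check, no test and no p-value, and the ratios describe these 2 RNA samples only. Error was gauged from how far different probe sets of 1 gene disagree. The SD of that disagreement on the log2 scale was 0.55 for signals between the floor of 36.3 and 112.8, 0.37 up to 500, 0.21 up to 2000 and 0.13 beyond. The floor is the level that 40% of all signals stay below, and dimmer signals were raised to it. For the SD, only probe sets above the floor on both arrays and in the same signal range were compared. Disagreement between bright and dim probe sets of a gene is left out. All probe sets share the same RNA and arrays, so the SD holds no variation between sorts, mice or arrays. Where just 1 of the arrays gave a signal over the floor, the ratio is a bound, written "at least". Since probes differ in how strongly they bind, signals of different probe sets do not rank transcript levels, and where genes are picked or summed by signal below, this describes the arrays alone.

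The sort and the cell type showed in their own genes. Il5 had a signal of 37085 in IL-5+ cells and 67.4 in IL-5- cells. Of the 7 T cell markers listed, 6 had a named probe set and all 6 were above the floor on both arrays. They were Cd3e (1952 against 2474), Cd3d (9116 against 13553), Cd3g (5471.5 against 8947), Cd28 (9051 against 10151), Cd5 (7975 against 8507) and Cd4 (454.5 against 471). All 6 had lower signal in IL-5+ cells, with a median log2 ratio of -0.25. Their sums were 34018.5 in IL-5+ cells and 44103 in IL-5- cells. Over all probe sets the median signal was 57.2 for IL-5+ cells and 60.4 for IL-5- cells.

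All 13 ligand genes were above the floor on both arrays, and 4 of them were at least 2-fold higher in IL-5+ cells, where 2.85% of all 13133 genes above the floor were. These 4 were Tnfsf14, Tnfsf10, Tnfsf11 and Cd70. A further 2 ligands, Ltb and the dim Tnfsf13b, were at least 2-fold lower, where 4.01% of all those genes were. Of the 23 receptor genes, 20 exceeded the floor in at least 1 fraction. Among those, Tnfrsf25 was at least 2-fold higher, and Cd40 and Tnfrsf14 were at least 2-fold lower. The median log2 ratio was 0.61 over the 13 ligands, 0.0066 over the 20 receptors and -0.048 over all 13133 genes. The members were chosen with earlier results for several of them known, so these counts and medians describe the family and are not a test of it.

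**Figure D1:**
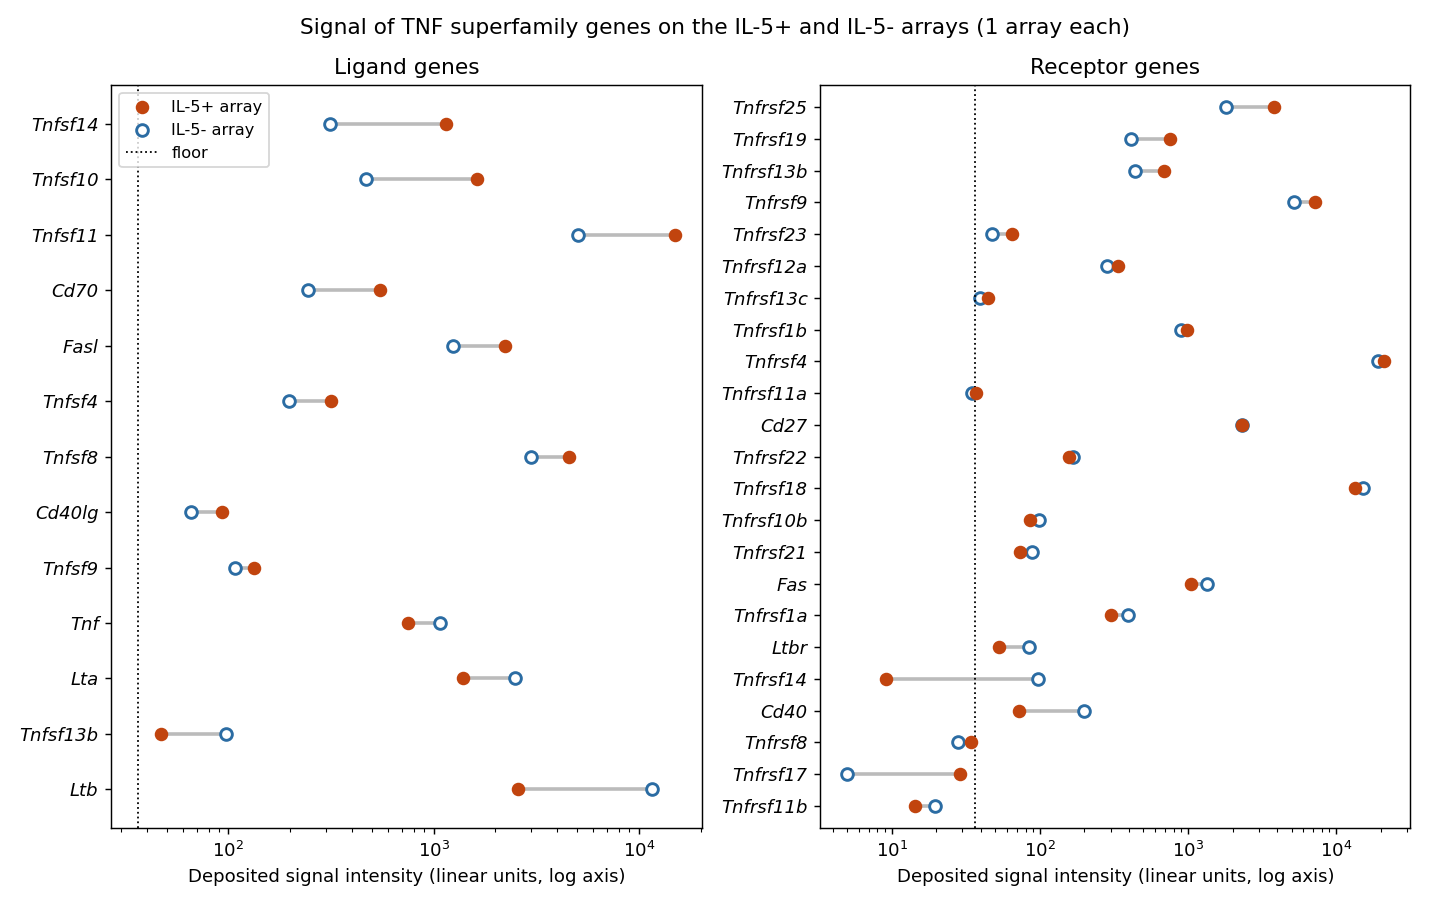
Deposited signal intensity of each ligand gene (left) and receptor gene (right) at the probe set used, on a log axis, with filled points for the IL-5+ array, open points for the IL-5- array and a dotted line at the floor of 36.3. The widest gaps among the ligands are those of Ltb, Tnfsf14, Tnfsf10 and Tnfsf11, while most receptor pairs of points lie close together. The receptors Tnfrsf14 (9.2 in IL-5+ and 97.1 in IL-5- cells) and Tnfrsf17 (28.8 and 5) have wider gaps than any ligand, with signals under the floor. Tnfrsf8, Tnfrsf17 and Tnfrsf11b are under the floor on both arrays.

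The stretches upstream of Tnfsf14, Tnfsf10, Tnfsf11 and Ltb are shown because these ligands differed most among those with bright signals. Each is the 250 bases before the annotated start of the gene, on the gene's own strand and 5′ to 3′, from RefSeq on GRCm38.p6. Capitals mark matches, on either strand, to any of 7 motifs searched: AP-1 (TGANTCA), NFAT (GGAAAA), STAT6 (TTC, any 4 bases, then GAA), the interferon response element (GAAA, any 2 bases, then GAAA), GATA factors (AGATAA), the TATA box (TATAAA) and the NF-kappaB consensus.
Tnfsf14, chr17:57194182-57194431, minus strand: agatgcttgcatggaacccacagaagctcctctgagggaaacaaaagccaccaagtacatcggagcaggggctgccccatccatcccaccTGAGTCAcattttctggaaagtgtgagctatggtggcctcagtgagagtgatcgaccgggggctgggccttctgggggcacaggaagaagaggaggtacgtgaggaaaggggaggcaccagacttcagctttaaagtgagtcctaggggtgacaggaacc
Tnfsf10, chr3:27316827-27317076, plus strand: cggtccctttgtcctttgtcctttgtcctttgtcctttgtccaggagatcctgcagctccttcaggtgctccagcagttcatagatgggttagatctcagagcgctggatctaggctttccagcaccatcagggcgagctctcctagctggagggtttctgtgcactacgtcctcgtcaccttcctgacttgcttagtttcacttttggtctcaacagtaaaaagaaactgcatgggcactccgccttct
Tnfsf11, chr14:78308044-78308293, minus strand: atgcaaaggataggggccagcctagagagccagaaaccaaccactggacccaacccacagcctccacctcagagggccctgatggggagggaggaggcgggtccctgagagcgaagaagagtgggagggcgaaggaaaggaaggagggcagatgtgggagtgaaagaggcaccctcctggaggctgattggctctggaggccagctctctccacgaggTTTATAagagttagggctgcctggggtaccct
Ltb, chr17:35194257-35194506, plus strand: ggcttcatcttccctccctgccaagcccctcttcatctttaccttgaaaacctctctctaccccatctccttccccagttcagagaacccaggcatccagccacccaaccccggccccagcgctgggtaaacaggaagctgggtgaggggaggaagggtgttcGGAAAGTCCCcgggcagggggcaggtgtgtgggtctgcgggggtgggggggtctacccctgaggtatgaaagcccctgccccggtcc

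In these windows the Tnfsf14 stretch held 1 AP-1 match, 160 to 154 bases before the start, in a motif that is its own reverse complement. Tnfsf11 held a TATA match on the opposite strand, 32 to 27 bases before the start. Ltb held an NF-kappaB match, 87 to 78 bases before the start, the only one among the 9 ligand windows in the table. No motif searched was present in the Tnfsf10 window. Of the 37 member genes, 28 had an entry in the promoter table, 9 of them ligands and 19 receptors. AP-1 was present for 2 ligands and 3 receptors and in 6.75% of the 32851 windows of all genes. NF-kappaB was present for 1 ligand and 3 receptors and in 7.25% of all windows, and NFAT for 2 ligands and 8 receptors and in 20.4%. STAT6 matched for 2 ligands and 1 receptor, against 5.85% of all windows, and the interferon element for 1 ligand and 3 receptors, against 2.98%. TATA matched for 3 ligands and 2 receptors, against 12.4% of all windows, and GATA for 1 ligand and no receptor, against 9.99%. A match is a run of letters and not a shown binding site.

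Tnfsf14 had the highest ratio of the family. It encodes LIGHT, a ligand of the herpesvirus entry mediator and of the lymphotoxin beta receptor. Its signal was 1150.2 in IL-5+ cells and 313.5 in IL-5- cells, a 3.67-fold difference (log2 ratio 1.88). The second Tnfsf14 probe set had 419 in IL-5+ cells and 116.1 in IL-5- cells, a log2 ratio of 1.85. The 2 probe sets therefore differed from each other by much less than the fractions did.

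Tnfsf10, the death ligand TRAIL, showed the same direction at 3 probe sets. The one used had a signal of 1621 in IL-5+ cells and 469.9 in IL-5- cells, a 3.45-fold difference (log2 ratio 1.79). The other probe sets gave 1189 against 394.5 and 498.8 against 167.6, at log2 ratios of 1.59 and 1.57. TRAIL is also known as an interferon-induced gene.

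Tnfsf11 encodes RANKL, the ligand that drives osteoclast formation and supports dendritic cell survival. Its signal was 14961 in IL-5+ cells and 5075 in IL-5- cells, 2.95-fold apart (log2 ratio 1.56). A second probe set, with 4123 and 1513, gave a log2 ratio of 1.45. Both ratios exceeded the SD of 0.13 between probe sets at such signals.

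Cd70, the ligand of CD27, is induced on activated lymphocytes and dendritic cells. Its single probe set had 549.1 in IL-5+ cells and 245 in IL-5- cells, a 2.24-fold difference (log2 ratio 1.16, with an SD of 0.37 between probe sets at such signals). It is the closest of the 4 higher ligands to the 2-fold line. Only the other scalings and the added constant could change its ratio, which then stayed above that line, from 1.06 to 1.24. The other alternative settings could not, as its single probe set lies above every floor tried and was never left out.

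Several other costimulatory and death ligands had ratios above 0 and under 2-fold. Fasl, the Fas ligand that triggers apoptosis, had 2230 in IL-5+ cells and 1246 in IL-5- cells (log2 ratio 0.84), and its second probe set gave 0.63. Tnfsf4, encoding OX40 ligand, had 317.3 against 196.3 (0.69). Tnfsf8, encoding CD30 ligand, had 4580 in IL-5+ cells against 2997 in IL-5- cells (0.61). The ratios of Fasl, Tnfsf4 and Tnfsf8 each exceeded the SD between probe sets at their signals, which was 0.21, 0.37 and 0.13. Cd40lg, the ligand by which helper T cells activate B cells, was dim at 92.6 and 65.4, and its ratio of 0.50 was under the SD of 0.55 there. Tnfsf9, encoding 4-1BB ligand, had 133.9 in IL-5+ cells against 107.2 in IL-5- cells (0.32, also under its SD of 0.37).

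The TNF and lymphotoxin ligands ran the opposite way. Ltb encodes lymphotoxin beta, which anchors lymphotoxin alpha at the cell surface and through the lymphotoxin beta receptor maintains lymphoid tissue. Its signal was 2587 in IL-5+ cells and 11608 in IL-5- cells, 4.49-fold lower in IL-5+ cells (log2 ratio -2.17). Lta, encoding lymphotoxin alpha, had 1384 against 2500.3 (-0.85). Tnf itself, the inflammatory cytokine, had 747.8 in IL-5+ cells against 1080 in IL-5- cells (-0.53). Each of these 3 genes had 1 probe set, and each ratio was more than 2 SD of probe sets from 0.

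Tnfsf13b encodes BAFF, a B cell survival factor made mostly by myeloid cells, and it was near the floor. Its probe set used had 46.8 in IL-5+ cells and 97.2 in IL-5- cells (log2 ratio -1.05), but another gave 59.3 against 63.1 (-0.090) and the last was under the floor in both fractions. With the median of the measured probe sets the ratio was -0.57, so its place among the 2-fold lower ligands rested on 1 dim probe set. Tnfsf13os had 25.7 in IL-5+ cells against 60.5 in IL-5- cells, at least 1.67-fold lower.

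**Figure D2:**
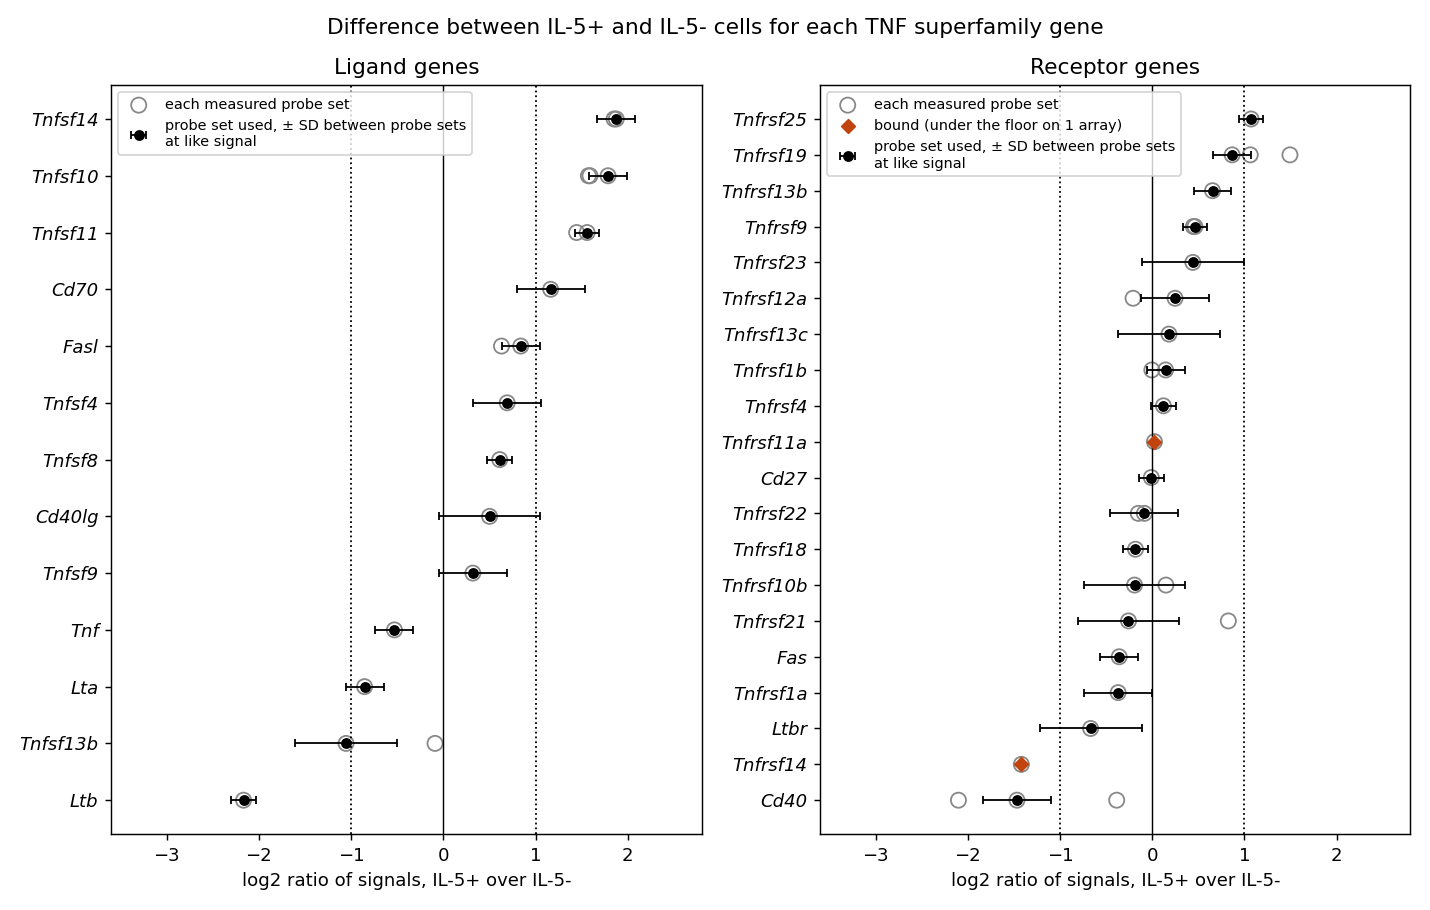
Log2 ratio (IL-5+ over IL-5-) of the signals for the 13 ligand genes (left) and the 20 receptor genes above the floor on 1 or both arrays (right). Black points are the probe set used with ± 1 SD between probe sets of 1 gene at like signal, open circles are every measured probe set, diamonds are bounds, and dotted lines mark 2-fold. Ligand ratios run from -2.17 to 1.88. Those of the 18 receptors above the floor on both arrays run from -1.47 to 1.07, and the diamond of Tnfrsf14, at -1.42, is a bound that the floor sets.

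OX40, GITR and CD27, which costimulate T cells, had bright signals and small differences. Tnfrsf4, encoding OX40, had 20905 in IL-5+ cells and 19228 in IL-5- cells (log2 ratio 0.12). Tnfrsf18, encoding GITR, had 13435 against 15243 (-0.18). Cd27, a costimulatory receptor of resting and memory cells, had 2302.5 against 2319 (-0.010). Both OX40 and CD27 thus lay within 1 SD of probe sets of no difference, and GITR just outside it. Tnfrsf9, encoding 4-1BB, had 7143 in IL-5+ cells against 5183 in IL-5- cells (0.46), and a second probe set with 5476 against 4020.5 gave 0.45.

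Tnfrsf25 was the receptor that was at least 2-fold higher at the probe set used. It encodes death receptor 3, the receptor for TL1A, which costimulates T cells. The signal was 3787 in IL-5+ cells and 1802 in IL-5- cells, a 2.10-fold difference (log2 ratio 1.07, with an SD of 0.13 between probe sets at such signals). It had 1 probe set, of a kind that may match several transcripts of the gene. Tnfrsf19, encoding the orphan receptor TROY, had 753 in IL-5+ cells against 413.2 in IL-5- cells (0.87). A second Tnfrsf19 probe set had 738.8 against 262.5 (1.49), and the third, over the floor in IL-5+ cells alone, gave at least 1.06. All 3 thus pointed to higher signal in IL-5+ cells, and the 2-fold call depended on which was read. Tnfrsf13b, encoding TACI, a receptor for BAFF and APRIL best known on B cells, had 691.9 in IL-5+ cells and 439.9 in IL-5- cells (0.65).

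Fas, the death receptor for Fas ligand, had 1052 in IL-5+ cells against 1349 in IL-5- cells (log2 ratio -0.36). Tnfrsf1a and Tnfrsf1b encode the TNF receptors TNFR1 and TNFR2. Tnfrsf1a had 303.2 against 391.9 (-0.37), and Tnfrsf1b had 985.6 against 891.5 (0.14), with a second probe set at -0.0045. Tnfrsf12a, the receptor for TWEAK, had 334.9 in IL-5+ cells against 282.2 in IL-5- cells (0.25), while its second probe set gave -0.21. Tnfrsf1a was at, and Tnfrsf12a within, the SD of 0.37 for their signals, whereas Fas was beyond its SD of 0.21.

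The remaining measured receptors were dim, with no signal above 200 at the probe set used. Cd40, the receptor by which B cells and antigen-presenting cells receive T cell help, had 72.2 in IL-5+ cells and 199.6 in IL-5- cells (log2 ratio -1.47). Its other probe sets gave at least 4.29-fold lower (16 against 155.8) and -0.39 (65.6 against 85.7). Tnfrsf14, the herpesvirus entry mediator, had 9.2 against 97.1 and was at least 2.67-fold lower. A lower floor, at the 20th percentile of signals, gave it a log2 ratio of -3.08, and no floor gave -3.40, both below that of any ligand, so how far it lay from 0 depended on the floor. The IL-5- signals of Cd40 and Tnfrsf14 were both under 200, and with a floor of 112.8 no receptor was at least 2-fold lower. Ltbr, encoding the lymphotoxin beta receptor of stromal and myeloid cells, had 53.1 in IL-5+ cells against 84.4 in IL-5- cells (-0.67). The TRAIL receptor gene Tnfrsf10b (-0.19), the mouse TRAIL decoy receptor genes Tnfrsf22 (-0.086) and Tnfrsf23 (0.44), the BAFF receptor gene Tnfrsf13c (0.18) and Tnfrsf21 (-0.26), encoding death receptor 6, all lay within the SD at their signals. The 2 Tnfrsf21 probe sets pointed in opposite directions, at -0.26 and at least 0.82. Tnfrsf11a, encoding the RANKL receptor RANK, was at the floor, at 36.9 and 35. Tnfrsf8 (CD30), Tnfrsf17 (BCMA) and Tnfrsf11b (osteoprotegerin, the soluble decoy of RANKL) were under the floor on both arrays and have no ratio. Their signals lay between 5 and 34.3 at the probe sets used, and a second Tnfrsf11b probe set had 1 and 12.1.

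Cd40 and Tnfsf13b are genes that B cells and myeloid cells also express, so the markers of those cells are given beside them. The B cell list had 7 genes, 6 with a named probe set and 4 above the floor on 1 or both arrays, and its summed signal was 141.1 in IL-5+ cells and 244.6 in IL-5- cells. Cd79a and Cd79b, the defining signalling chains of the B cell receptor, were under the floor on both arrays. The 2 members with the most summed signal were Ms4a1 (60.7 against 62.1) and Pax5 (6.4 against 70.2). Pax5 and Blk (8.7 against 48) were over the floor in IL-5- cells alone. Cd22 went the other way, at 38.6 against 21.9 and over the floor in IL-5+ cells alone. Of the 6 macrophage and monocyte markers 4 were above the floor, with sums of 282.9 in IL-5+ cells and 335.8 in IL-5- cells. Cd14 stayed under the floor in both fractions, and Csf1r (105.6 against 124.5) and Cd68 (109.1 against 75.8) had the highest signals. Adgre1 (35.9 against 61.1) and Lyz2 (6.3 against 42) were over the floor in IL-5- cells alone, so Cd68 was the only measured one higher in IL-5+ cells. Dendritic cell markers summed to 2605 in IL-5+ cells and 3727 in IL-5- cells. Most of it was Cd83 (2359 against 3508), which activated lymphocytes also make, and then Zbtb46 (149.7 against 79.1). The Zbtb46 probe sets disagreed in direction, with log2 ratios from -0.33 to 0.92. Itgax (18 against 70.1) and Siglech (34.5 against 38.1) were over the floor in IL-5- cells alone, and Xcr1 (41.1 against 8) in IL-5+ cells alone. The part of such cells in the Cd40 and Tnfsf13b ratios was not tested. In bulk RNA, fewer cells of a type and less RNA per cell cannot be told apart.

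With dim signals raised to the floor, the other marker lists had no member at least 2-fold apart, apart from the Treg list. CD8 T cell markers summed to 347.1 in IL-5+ cells and 245.1 in IL-5- cells, with Cd8a at 66.9 against 76.7 and Cd8b1 at 280.2 against 168.4. NK cell markers summed to 623.7 in IL-5+ cells and 335.8 in IL-5- cells, most of it Klrk1 (519.4 against 297.1) and then Fcer1g (61.4 against 4.7), with the defining Ncr1 under the floor. Among basophil, mast cell and eosinophil markers (57.1 in IL-5+ cells and 107.4 in IL-5- cells in all) Cpa3 (21 against 50.5) was the only one over the floor, and Ms4a2 (12.2 against 17.7) came next. Stromal and endothelial markers summed to 425.9 in IL-5+ cells and 315.7 in IL-5- cells, led by Pecam1 (257.7 against 165.2) and Kdr (102 against 73.4). Plasma cell markers summed to 15602 in IL-5+ cells and 13172 in IL-5- cells, nearly all of it Xbp1 (15416 against 12996), which T cells express, with Mzb1 at 100.6 against 57.6. Sdc1 had 57.3 against 51.2. Jchain went the other way, at 28.8 against 67.7 and over the floor in IL-5- cells alone (log2 ratio -0.90 or below). The Treg list, whose cells are known for GITR and OX40, summed to 7374 in IL-5+ cells and 7795 in IL-5- cells, most of it Il2ra (4328 against 5104) and Ctla4 (1183 against 1394), which activated T cells share. Within it Foxp3 (39.6 against 94.6, -1.26) and Ikzf2 (216.4 against 731.7, -1.76) were lower and Nrp1 was higher (1607 against 470.6, 1.77), though its probe sets ran from -0.24 to 2.67. The part of other cells in the family's ratios was not tested.

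Ligands and their receptors were next set side by side. Of 21 textbook pairs, 14 had both genes above the floor on both arrays. The ligand ratio was above the receptor ratio in 6 of these and below it in 8, with some genes in several pairs. LIGHT was 3.67-fold higher in IL-5+ cells, while its receptor genes Tnfrsf14 and Ltbr stood at or below -1.42 and at -0.67. TRAIL was higher by 1.79 on the log2 scale and its receptor gene Tnfrsf10b stood at -0.19. RANKL was higher by 1.56, with the gene of its receptor RANK at the floor on both arrays. For CD70 and CD27 the log2 ratios were 1.16 and -0.010, for Fas ligand and Fas 0.84 and -0.36, and for OX40 ligand and OX40 0.69 and 0.12. For 4-1BB ligand and 4-1BB they were 0.32 and 0.46. CD40 ligand stood at 0.50 with CD40 at -1.47, both dim. In the opposite direction, lymphotoxin beta stood at -2.17 and its receptor at -0.67. TNF stood at -0.53, TNFR1 at -0.37 and TNFR2 at 0.14. Lymphotoxin alpha, paired with the same receptors, stood at -0.85. BAFF stood at -1.05 and TACI at 0.65. The ligands of DR3, GITR and Fn14, which are Tnfsf15, Tnfsf18 and Tnfsf12, had no probe set with a single symbol and were not analysed here.

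**Figure D3:**
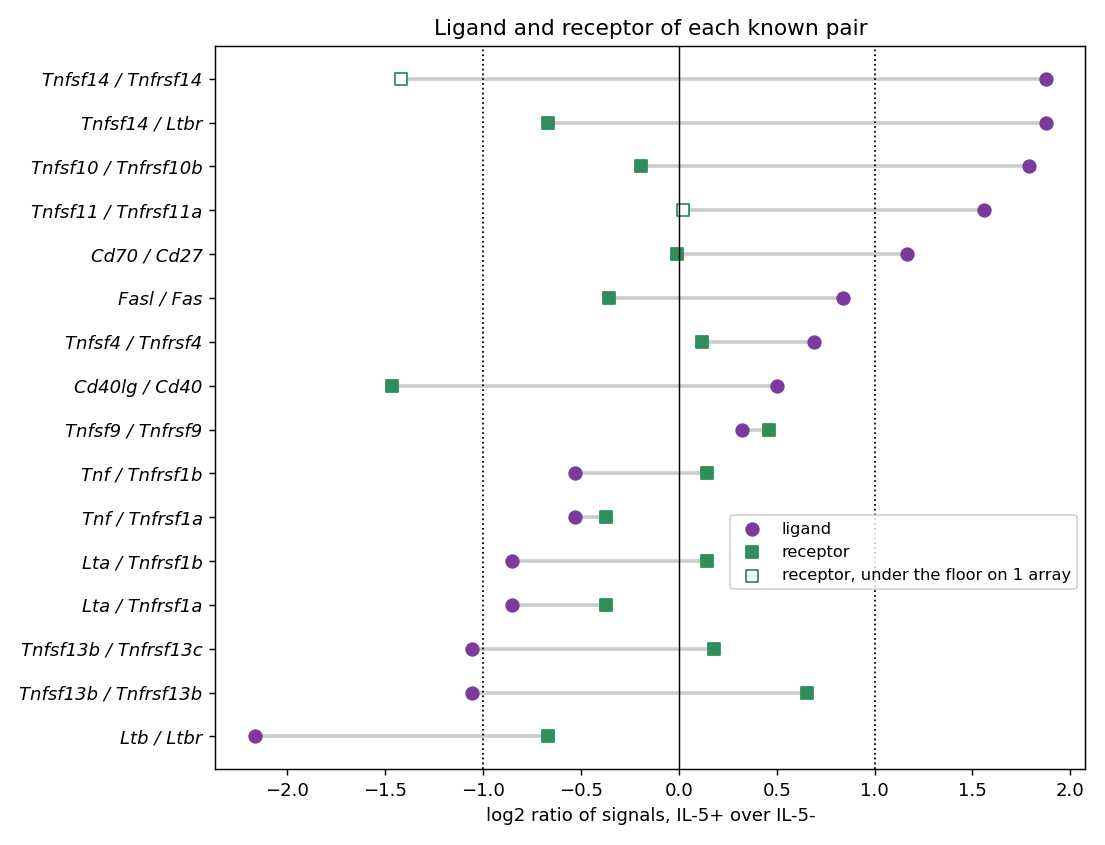
Log2 ratio (IL-5+ over IL-5-) of the signals for the ligand (circles) and the receptor (squares, open where under the floor on 1 array) of each textbook pair with both genes above the floor on 1 or both arrays; dotted lines mark 2-fold. Circles lie left of their squares for Tnfsf9, Tnf, Lta, Tnfsf13b and Ltb and right of them for the other ligands, and a gene stands in several rows where it has several partners.

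Some members are neighbours in the genome, by gene order in the RefSeq table of GRCm38.p6. On chromosome 17, Ltb, Tnf and Lta follow each other with no coding gene between them, and all 3 were lower in IL-5+ cells (-2.17, -0.53 and -0.85). Also on chromosome 17, Tnfsf9, Cd70 and Tnfsf14 are consecutive and stood at 0.32, 1.16 and 1.88, the first of them within its SD. Fasl and Tnfsf4 on chromosome 1 are separated by Tnfsf18 alone and stood at 0.84 and 0.69. The receptor genes Tnfrsf4 and Tnfrsf18, adjacent on chromosome 4, stood at 0.12 and -0.18. On chromosome 6, Cd27, Ltbr and Tnfrsf1a have 1 coding gene between each pair and stood at -0.010, -0.67 and -0.37. Tnfrsf22 and Tnfrsf23, adjacent on chromosome 7, stood at -0.086 and 0.44, both within their SD. How often neighbouring genes in general have like ratios was not measured.

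The intracellular partners of these receptors were read from a list of 33 genes, of which 29 had a named probe set and all 29 were above the floor. In IL-5+ cells 1 was at least 2-fold higher and 2 were at least 2-fold lower, which is 3.45% and 6.90% of them against the 2.85% and 4.01% of all genes above. Their median log2 ratio was -0.099. Traf1, an adaptor that NF-kappaB induces and that binds 4-1BB and TNFR2, had 4166 in IL-5+ cells and 1938 in IL-5- cells (1.10), with its probe sets from 0.42 to 1.10. Traf4, a more divergent TRAF, had 202.5 against 580.6 (-1.52), and its measured probe sets all lay at -1.16 or below. Otulin, a deubiquitinase that trims linear ubiquitin chains, had 950 in IL-5+ cells against 1936 in IL-5- cells (-1.03). The 4 members with the highest signals differed by less than 2-fold, namely Nfkbia (25704 against 27206), which encodes the inhibitor that holds NF-kappaB in the cytoplasm, Tab2 (5878 against 4424), Tnfaip3 (5458 against 4373), encoding the brake A20, and the shedding protease gene Adam10 (4779 against 4900.2).

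**Figure D4:**
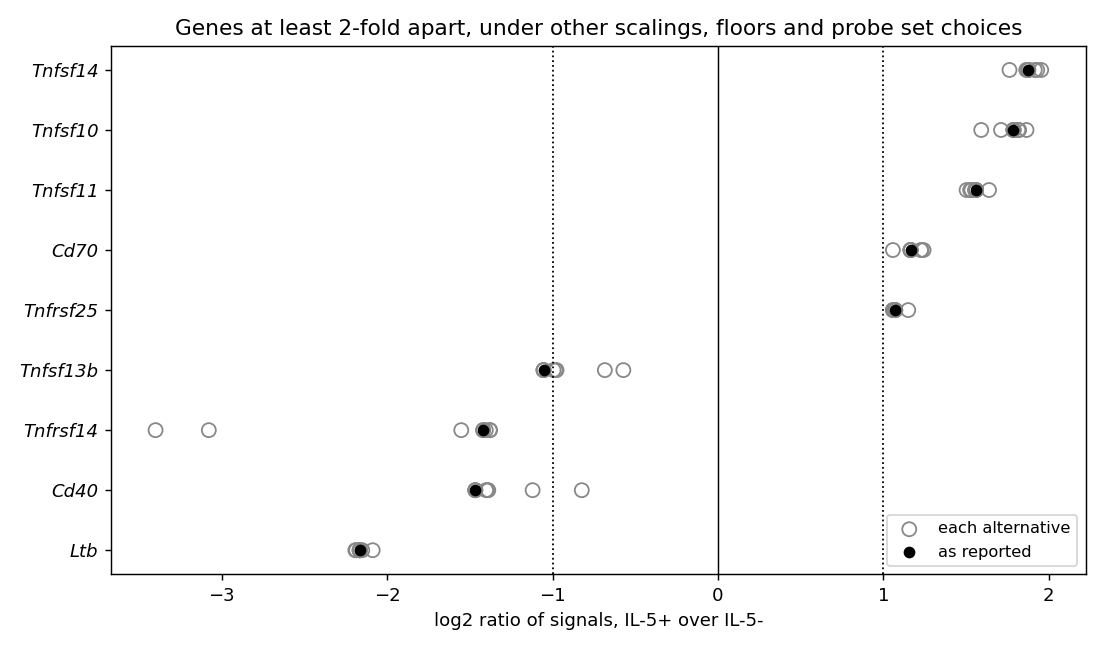
Log2 ratio (IL-5+ over IL-5-) of the 9 ligand and receptor genes at least 2-fold apart, as reported (black) and under each alternative scaling, floor and choice of probe sets that gave a value (open circles). Tnfsf14, Tnfsf10, Tnfsf11, Cd70, Tnfrsf25, Tnfrsf14 and Ltb keep to 1 side of the dotted 2-fold lines in the alternatives that gave them a value, and Tnfsf13b and Cd40 cross them. Where both signals of a gene lie above every floor, the floor settings leave its value as reported.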

How the data were processed

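The authors deposited linear signal intensities, 1 value for each probe set in each fraction. GCOS, Affymetrix's array software, is named in the submitters' processing notes. Its settings and version were not given in the sources used here, and there are no detection calls. After trimming 2% at each end, the mean signal was 496 for IL-5+ cells and 497 for IL-5- cells. Ratios are therefore relative to the rest of each array. Dim signals gave the least precise ratios, by the SD between probe sets. Raising signals to the floor shrinks the ratios of dim genes. Whether bright signals were saturated was not examined.

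Probe sets were named from the platform annotation where it gave 1 symbol (34945 of 45037). Several symbols were given for 932, and 9160 were not listed. Each gene was read at the probe set brightest on average over both arrays, in log2 units. All members' symbols matched RefSeq through their entrez identifiers. The named genes were every member, the partners at least 2-fold apart and the 4 brightest, and the 2 brightest and defining markers of other cell types. For T cells, B cells, macrophages, dendritic cells and plasma cells, every marker above the floor was named. Members and lists were chosen with earlier results of these data known, and the motifs after the ratios were seen. Promoter windows came from RefSeq tables. No test was run. Counting was tested on simulated data. Alternatives were other scalings, floors, an added constant, probe set choices and thresholds. Software was matplotlib 3.10.9, statsmodels 0.14.6, numpy 2.4.6, pandas 2.3.3, scipy 1.17.1 and Python 3.11.15.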

Additional observations from a re-analysis of the deposited data

How the results depend on the processing

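The 4 ligands at least 2-fold higher in IL-5+ cells were the same genes under all 9 alternative scalings, floors and probe set choices. Their signals lay above every floor tried, so the floor settings could not change this, and for Cd70 the probe set choices could not either. Higher ligands numbered 7 of 13 at 1.5-fold, with Fasl, Tnfsf4 and Tnfsf8 added, and 2 of 13 at 3-fold (Tnfsf10 and Tnfsf14). Lower ligands numbered 3 of 13 at 1.5-fold, with Lta added. Ltb was the only lower ligand (1) with each of the 3 other scalings, a floor of 112.8, an added constant and the median of probe sets, since Tnfsf13b then came under 2-fold or under the floor, and also at a 3-fold threshold, which its unchanged ratio of -1.05 does not reach. Higher receptors numbered 2 of 23 with no floor or one at the 20th percentile (Tnfrsf17 added). They numbered 2 of 20 with the median of probe sets (Tnfrsf19 added), 3 of 20 at 1.5-fold and 0 at 3-fold. Without probe sets ending in _s_at, _x_at or _a_at the single higher receptor was Tnfrsf19 in place of Tnfrsf25, which has no other probe set. Lower receptors numbered 0 of 13 with a floor of 112.8, 3 of 20 at 1.5-fold (Ltbr added) and 0 of 20 at 3-fold. They numbered 1 of 16 without those suffixes, where Cd40 has no probe set left. The receptor median was 0.12 with a floor of 112.8 and 0.13 without the suffixed probe sets, and the ligand median stayed between 0.60 and 0.69. Over all genes, the higher and lower counts were 374 and 526 of 13133 as reported. With the floor at the 20th percentile they were 1325 and 1572 of 16594, and at the 60th 183 and 226 of 9097. No floor gave 2058 and 2314 of 18193. The thresholds gave 1036 and 1563 of 13133 at 1.5-fold, and 91 and 143 of 13133 at 3-fold. The median of probe sets gave 327 and 450 of 13208. Leaving out the suffixed probe sets gave 325 and 463 of 11565. An added constant gave 317 and 424 of 13133. Scaling by array median gave 435 and 443 of 13134, by quantile 414 and 464 of 13137, and by loess 401 and 474 of 13132. Tnfrsf14 ranged from -3.40 with no floor and -3.08 with one at the 20th percentile to -1.38. No member at least 2-fold apart changed direction in any alternative that gave it a value. No paired analysis was possible because each group has 1 array. The number of arrays and signals near background limit the precision.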

Other observations

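TNF family genes outside the naming rule were read from a short list. Of Eda, Edar, Eda2r, Ngfr and Relt, 4 were above the floor of 36.3 on 1 or both arrays. Relt, a receptor found in lymphoid tissue, had a signal of 187 in IL-5+ cells and 271.2 in IL-5- cells (log2 ratio -0.54). Eda (43.2 against 32), Eda2r (43.3 against 13.3) and Ngfr (51.2 against 10.4) exceeded it in IL-5+ cells alone, and none had a bound of 2-fold.

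A few probe sets match several family members and were left out of the counts. The one shared by the decoy receptor genes Tnfrsf22 and Tnfrsf23 had 157.5 in IL-5+ cells against 286.6 in IL-5- cells (-0.86), whereas the single-symbol probe sets of these genes gave -0.086 and 0.44. The one shared by Tnfsf12 and its read-through transcript Tnfsfm13 had 70.8 against 43.4 (0.71). The last, which also matches Tnfsf13, was under the floor on both arrays, at 15.5 and 4.4.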
